A study of Danio rerio with 2 samples.

Results

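Granins are acidic proteins that are packed with hormones into the secretory granules of endocrine cells and neurons. The granin genes described here were chosen by symbol (*chga*, *scg2a*, *scg2b*, *scg3* and *vgf*), and 4 of the 5 had a row among the 25432 genes counted. *scg2a* was not analysed here. The 4 genes are *chga* (ENSDARG00000008829, chromogranin A), *scg2b* (ENSDARG00000038574, a secretogranin II gene), *scg3* (ENSDARG00000086288, secretogranin III) and *vgf* (ENSDARG00000105529, VGF nerve growth factor inducible). The question was in which pituitary cell types each granin gene was transcribed, and whether its level differed between *gnrh3*-/- and WT females. The hypophysiotropic peptide Gnrh3 is missing in the mutants.

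One droplet library was made from 5 pooled pituitaries of *gnrh3*-/- female zebrafish, and 1 library from 5 pooled pituitaries of their WT (*gnrh3*+/+) female siblings. All fish were 3 months old and sexually mature, had been selected for successful spawning, and were sampled before lights on. The knockout is inherited and present in every cell throughout life, so the data do not separate an acute from a lifelong absence of the peptide. With 1 library per genotype, and the animals of each pooled, differences between genotypes could not be set against a spread between replicates, and none was tested. The authors kept 4794 *gnrh3*-/- cells and 2194 WT cells, with medians of 5368 and 6961 unique molecular identifiers (UMIs) per cell. The mutated gene itself had 1 UMI in the cells of each library, which checks nothing about the labels.

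Granins aggregate with hormones in the trans-Golgi network, where they help to load and shape dense-core granules, and several are cut by prohormone convertases into peptides that are themselves released. In the pituitary they are used as general markers of cells that store hormone in granules. Chromogranin A promotes granule formation in rodent endocrine cells, and secretogranin III links chromogranin A to the granule membrane there. Secretogranin II is the precursor of secretoneurin, a peptide that stimulates LH release in goldfish. VGF is a precursor of several neuroendocrine peptides that act on energy balance in mice.

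Levels are given as UMIs of a gene per 10000 UMIs of all genes, summed over all cells that a library has of a type. Intervals are exact 95% intervals and cover counting error only, not the spread between fish or libraries. Levels are compared between cell types and genotypes for the same gene, never between genes. The types are those the authors deposited, of which 13 are described: 10 hormone-producing types, *isl1*+ cells, *her6*+ cells and a small type deposited as undetermined. Hormone genes held 3.94% of the UMIs in *gnrh3*-/- somatolactotropes alpha and 60.4% in *gnrh3*-/- somatotropes alpha, against 3.99% and 62.3% in the same types of WT, with the other hormone-producing types in between. The *isl1* level was 6.68 in *gnrh3*-/- and 6.50 in WT *isl1*+ cells, and the *her6* level 9.76 and 5.27 in *her6*+ cells. The undetermined type, with 17 *gnrh3*-/- and 11 WT cells, held the immune markers *fcer1gl*, *ptprc* and *cd74a* at a summed level of 134 and 123, which were at most 0.0856 and 0.0689 in each of the other 12 types.

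Each of the granin genes had its own distribution over the cell types, and the type with the highest level was the same in both libraries for 4 of 4 genes. *chga* and *scg2b* were highest in somatolactotropes alpha, *scg3* in lactotropes, the prolactin cells, and *vgf* in FSH gonadotropes. The 4 highest types stayed the same with hormone genes left out of the total, with the mean of single-cell levels, and with free RNA subtracted. Among the hormone-producing types, somatotropes alpha had the lowest level of *chga*, *scg2b* and *scg3* in both libraries. For *scg2b* this held only with hormone genes in the total, and without them LH gonadotropes in *gnrh3*-/- (2.09) and WT (2.89) were lowest.

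**Figure D1:**
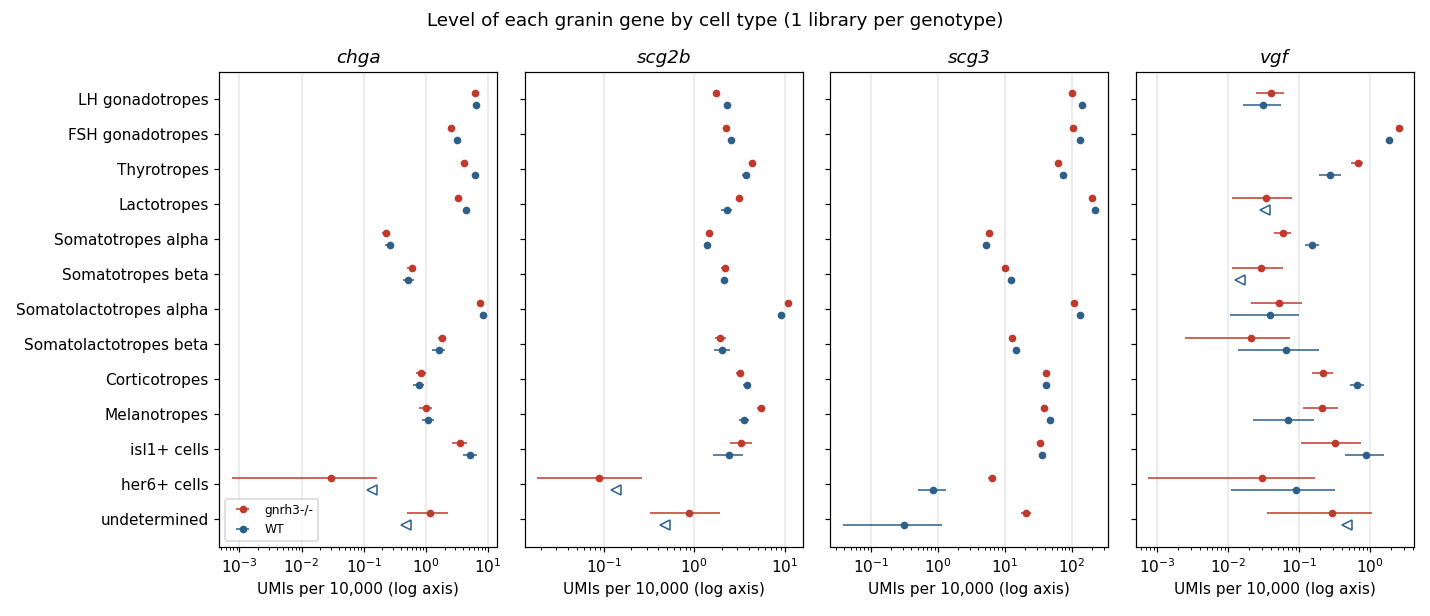
Levels of *chga*, *scg2b*, *scg3* and *vgf* (x axes, UMIs per 10000, log scale) in 13 cell types (y axis) of the *gnrh3*-/- library (red, upper point) and the WT library (blue, lower point). Points are sums over the cells of a type, bars are exact Poisson 95% intervals, and open triangles mark the level of 3 UMIs where none was counted. *vgf* stands at 2.60 and 1.82 in FSH gonadotropes, above every other type.

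*chga* was highest in somatolactotropes alpha, with 7.49 (7.03 to 7.97) in *gnrh3*-/- and 8.19 (7.64 to 8.76) in WT. LH gonadotropes came next, with 6.24 (6.03 to 6.46) in *gnrh3*-/- and 6.49 (6.24 to 6.75) in WT. The 603 *gnrh3*-/- and 232 WT LH gonadotropes held 40.7% of all *chga* UMIs of the *gnrh3*-/- library and 39.9% of those of the WT library. These shares also count depth, since LH gonadotropes had medians of 8250 and 15651.5 UMIs, against 5368 and 6961 over all cells. Thyrotropes, *isl1*+ cells, which also transcribe the glycoprotein alpha subunit, and lactotropes followed in that order in both libraries. The intervals of neighbours among them overlapped, and in WT so did those of LH gonadotropes and thyrotropes, which had 8.07 and 8.23 with hormone genes left out of the total. FSH gonadotropes had 2.54 (2.43 to 2.66) and 3.13 (2.95 to 3.32), so that of the gonadotropes the LH type carried the higher level in each library.

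The remaining types made little *chga* transcript. Somatolactotropes beta had 1.81 and 1.63, melanotropes 1.01 and 1.10, corticotropes 0.836 and 0.762, somatotropes beta 0.595 and 0.524, and somatotropes alpha 0.226 and 0.264 in *gnrh3*-/- and WT. The somatolactotropes thus stood apart from each other, with the alpha type highest of all and the beta type, in which hormone genes took 54.7% and 57.6% of the UMIs, among the lower ones. With hormone genes left out of the total, the alpha type was still highest, at 7.80 and 8.53. The beta type then had 3.99 and 3.84, above FSH gonadotropes at 2.98 and 3.68, and was no longer among the lower types. In *her6*+ cells 1 *chga* UMI was counted in *gnrh3*-/- and 0 in WT, where 3 UMIs would be a level of 0.135.

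*scg2b* was also highest in somatolactotropes alpha, with 10.8 (10.3 to 11.4) in *gnrh3*-/- and 9.00 (8.43 to 9.60) in WT, and the interval of no other type reached it in either library. Melanotropes, the POMC cells of the pars intermedia, were second in *gnrh3*-/- at 5.52 (4.98 to 6.11), against 3.51 (3.10 to 3.97) in WT. In WT the second place was shared by corticotropes (3.82), thyrotropes (3.71) and melanotropes (3.51), whose intervals overlapped. With hormone genes left out of the total, melanotropes were second in both libraries, at 9.20 in *gnrh3*-/- and 5.91 in WT. Thyrotropes and corticotropes of WT then had 4.95 and 4.93. Unlike *chga*, *scg2b* was spread rather evenly over the rest of the hormone-producing types. Thyrotropes had 4.37 and 3.71, corticotropes 3.18 and 3.82, lactotropes 3.14 and 2.29, FSH gonadotropes 2.22 and 2.53, somatotropes beta 2.18 and 2.16, somatolactotropes beta 1.94 and 2.045, and LH gonadotropes 1.75 and 2.33 in *gnrh3*-/- and WT. Somatotropes alpha had 1.45 and 1.36, the lowest of the hormone-producing types, but 3.66 and 3.62 with hormone genes left out of the total, above both gonadotrope types. In *her6*+ cells 3 UMIs were counted in *gnrh3*-/- and 0 in WT.

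*scg3* was highest in lactotropes, with 198 (196 to 200.2) in *gnrh3*-/- and 220.3 (217 to 223) in WT. Behind them came somatolactotropes alpha (107 and 131), FSH gonadotropes (104 and 131) and LH gonadotropes (100.2 and 142). In WT the LH gonadotropes were first of these 3. In *gnrh3*-/- their order depended on the total, since with hormone genes left out LH gonadotropes (120) stood above somatolactotropes alpha (112). Both gonadotrope types together held 63.5% of all *scg3* UMIs in *gnrh3*-/- and 62.9% in WT. They were 29.1% and 21.1% of the cells, but held 37.7% and 33.6% of the UMIs of all genes.

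Thyrotropes had 61.1 and 72.6, corticotropes 40.8 and 41.5, melanotropes 37.8 and 47.0, and *isl1*+ cells 32.9 and 35.8. The types rich in growth hormone or somatolactin beta were lower, with 12.8 and 14.6 in somatolactotropes beta, 10.0 and 12.4 in somatotropes beta and 5.79 and 5.21 in somatotropes alpha. With hormone genes left out of the total these were 28.2 and 34.5, 17.3 and 21.5, and 14.6 and 13.8. Then *isl1*+ cells had 34.6 and 37.3, and corticotropes 54.8 and 53.6. Somatolactotropes beta thus came nearer to *isl1*+ cells, but they and both somatotrope types remained the lowest of the hormone-producing types. After each cell was thinned to 2000 UMIs, so that the deeper WT cells had no advantage, *scg3* was found in 98.8% to 100% of the cells of both gonadotropes, thyrotropes, lactotropes, somatolactotropes alpha, corticotropes, melanotropes and *isl1*+ cells of both libraries. It was found in 64.3% and 64.0% of somatotropes alpha and in 76.0% and 74.2% of somatotropes beta in *gnrh3*-/- and WT.

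*vgf* was largely a transcript of FSH gonadotropes. They had a level of 2.60 (2.48 to 2.72) in *gnrh3*-/- and 1.82 (1.69 to 1.97) in WT, and held 86.9% and 73.5% of all *vgf* UMIs of their libraries. LH gonadotropes, which are deep and share the glycoprotein alpha subunit with them, had 0.0399 and 0.0315, from 21 and 12 UMIs. *vgf* was thus the granin gene that most clearly separated the gonadotropes, while *chga* was higher in the LH type and *scg3* had similar levels in both. After thinning, *vgf* was found in 33.8% (30.5 to 37.3) of *gnrh3*-/- FSH gonadotropes and 24.8% (19.3 to 30.9) of WT FSH gonadotropes, against 0.670% and 0% of LH gonadotropes.

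Below the FSH gonadotropes, *vgf* was seen in thyrotropes (0.668 and 0.277), *isl1*+ cells (0.324 and 0.882, from 5 and 11 UMIs), corticotropes (0.219 and 0.660) and melanotropes (0.208 and 0.0689). The UMIs of *isl1*+ cells lay in 2 and 3 cells, and 1 cell held 80% of them in *gnrh3*-/- and 72.7% in WT. With mixed cells left out, the levels of *isl1*+ cells were 0.0747 from 1 UMI and 0.804 from 9 UMIs. Somatotropes alpha had 0.0596 and 0.152. In lactotropes and somatotropes beta of WT no *vgf* UMI was counted, where 3 UMIs would be levels of 0.0336 and 0.0147, and in the same types of *gnrh3*-/- there were 5 and 7 UMIs. Within FSH gonadotropes *vgf* was uneven, since the 10% of cells with the most *vgf* UMIs held 40.5% of them in *gnrh3*-/- and 48.4% in WT. The FSH gonadotropes with a *vgf* UMI also had more *fshb*, the hormone of the type. Their *fshb* level was 228 against 153 in those without one in *gnrh3*-/-, and 272 against 163 in WT, and they were deeper as well, with medians of 9409 against 6450 UMIs in *gnrh3*-/- and 17474 against 10415 in WT. The part of depth in this was not tested.

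**Figure D2:**
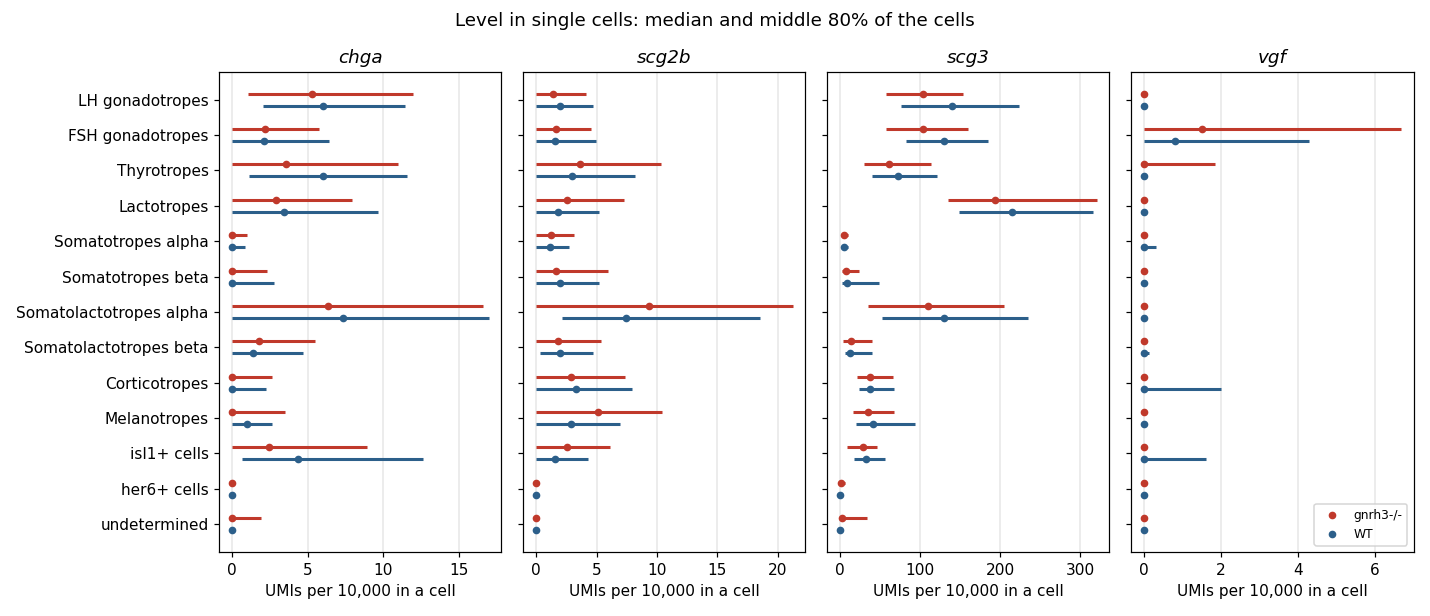
Level in single cells (x axes, UMIs per 10000 UMIs of the cell) of *chga*, *scg2b*, *scg3* and *vgf* in 13 cell types (y axis), with the median as a point and the 10th to 90th percentile of the cells as a line, for *gnrh3*-/- (red, upper) and WT (blue, lower). Only in FSH gonadotropes was the median of *vgf* above 0, at 1.52 in *gnrh3*-/- and 0.807 in WT.

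Single cells of a type carried different amounts of the granin transcripts. In LH gonadotropes the *scg3* level of single cells had a median of 103 and a 90th percentile of 153 in *gnrh3*-/-, against a median of 139 and a 90th percentile of 223 in WT. Somatotropes beta were the most uneven of the hormone-producing types for *scg3*, whose UMIs lay to 39.6% in *gnrh3*-/- and 37.1% in WT in the 10% of cells with the most of them. The 10% of cells with the highest *scg3* level had 63.9 in *gnrh3*-/- and 106.4 in WT, against 6.80 and 8.42 in the other cells. The cells were picked by this level, so that gap follows from the choice. Those cells had less *gh1*, the growth hormone gene, with levels of 2296 against 4252 in *gnrh3*-/- and 692 against 4358 in WT. They also had more *prl*, with 62.5 against 2.60 in *gnrh3*-/- and 40.0 against 0.920 in WT. They were shallower, with medians of 2022.5 against 5579 UMIs in *gnrh3*-/- and 3071 against 7931 in WT, and the part of mixed cells in them was not tested.

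Many cells held transcripts of several granin genes. In somatolactotropes alpha thinned to 2000 UMIs, 3 of the 4 genes were found in 62.9% of *gnrh3*-/- and 56.0% of WT cells. That share was higher than in any of the other types in both libraries. Alone, *scg3* was in 99.8% and 100% of the thinned somatolactotropes alpha of *gnrh3*-/- and WT. There *scg2b* was in 84.1% and 74.5%, and *chga* in 73.6% and 72.2%. Whether the genes shared cells more often than these separate shares give was not tested. All 4 genes were found in 5.70% and 5.22% of FSH gonadotropes. None was found in 26.1% and 28.3% of somatotropes alpha, and in 58.0% and 93.9% of *her6*+ cells. The 2000 UMIs of a thinned cell include those of hormone genes. These held 60.4% and 62.3% of the UMIs in somatotropes alpha, against 3.94% and 3.99% in somatolactotropes alpha. Thinned shares of hormone-rich types therefore rest on fewer UMIs of other genes, and their differences between types were not corrected for this.

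**Figure D3:**
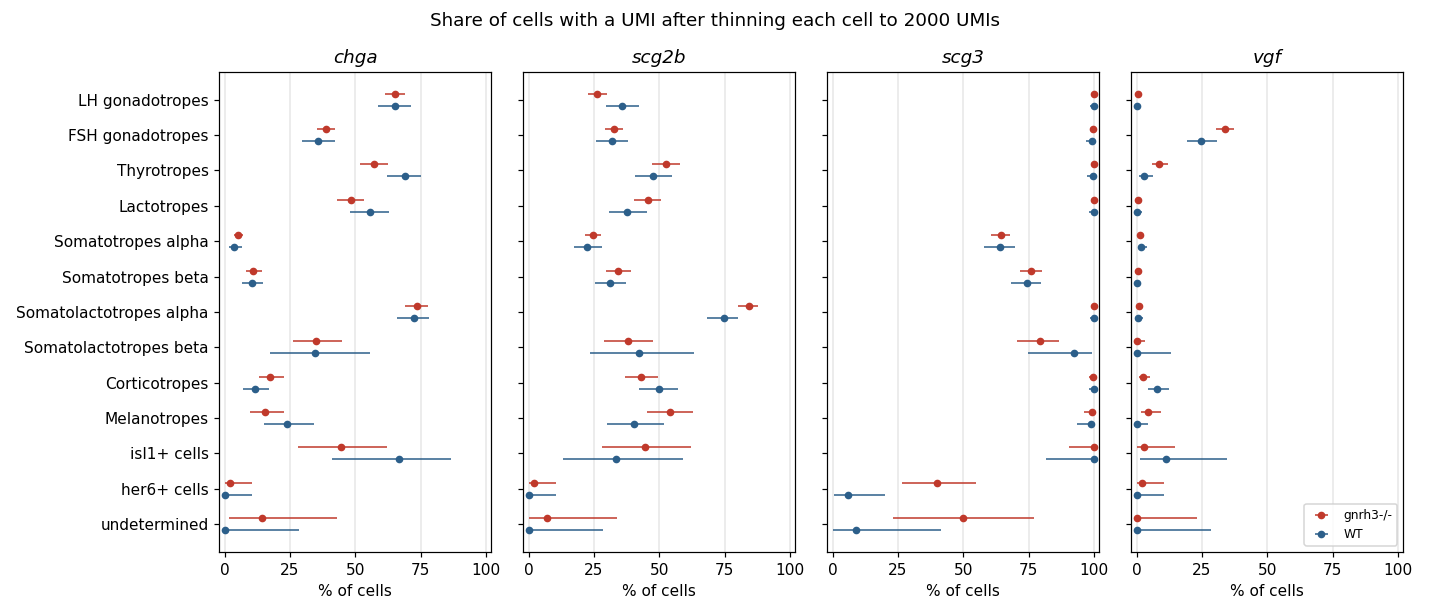
Share of cells (x axes, %) with at least 1 UMI of *chga*, *scg2b*, *scg3* or *vgf* after each cell was thinned to 2000 UMIs, in 13 cell types (y axis), for *gnrh3*-/- (red, upper) and WT (blue, lower) with exact Clopper-Pearson 95% intervals. *scg3* was in 40.0% of *gnrh3*-/- and 6.06% of WT *her6*+ cells.

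Free RNA in the droplets contained granin transcripts, and sets a floor to such shares. In empty droplets, the barcodes with 10 to 100 UMIs, the *scg3* level was 54.1 in *gnrh3*-/- and 57.9 in WT, that of *chga* 1.81 and 1.62, of *scg2b* 1.70 and 1.30, and of *vgf* 0.340 and 0.274. The largest share of free RNA that the hormones of other types allowed was 0.602% to 4.64% of the UMIs across the 13 types in *gnrh3*-/- and 0% to 0.870% in WT. *her6*+ cells and the undetermined type are not among the hormone-producing types. Free RNA at that largest share would give *her6*+ cells an *scg3* level of 0.652 in *gnrh3*-/- and 0.208 in WT, below the measured 6.48 and 0.856, and the undetermined type 0.521 in *gnrh3*-/-, below the measured 20.8. The thinned shares of *chga*, *scg2b* and *vgf* in *her6*+ cells were 2.0% each in *gnrh3*-/- (0.0506 to 10.6) and 0% each in WT (up to 10.6), at median depths of 3520 and 4774 UMIs. The *vgf* shares of LH gonadotropes, lactotropes, somatotropes alpha and beta and somatolactotropes alpha and beta, 0% to 1.55%, lay below that of the *gnrh3*-/- *her6*+ cells, and no order is read from these shares. Free RNA would give somatotropes alpha a *vgf* level of 0.00230 in *gnrh3*-/- and 0.000483 in WT, below the measured 0.0596 and 0.152.

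Levels in *gnrh3*-/- and WT were compared within each type as the log2 ratio of *gnrh3*-/- over WT. A ratio was read where both libraries together held at least 100 UMIs and each at least 4, which 37 of 52 pairs of gene and type did. This took in *chga* in 11 types, *scg2b* in 10, *scg3* in 12 and *vgf* in 4. Of the 37, 6 lay past 1.5-fold (16.2%), 3 lower and 3 higher in *gnrh3*-/-, and 31 lay within it. For all genes that met the same minimum, 9.94% of 29823 pairs of gene and type lay past 1.5-fold, 5.87% lower and 4.07% higher. By type, the share of all genes past 1.5-fold was 8.46% in LH gonadotropes, 7.26% in FSH gonadotropes, 12.9% in thyrotropes, 14.3% in lactotropes, 9.28% in somatotropes alpha, 11.5% in somatotropes beta, 7.03% in somatolactotropes alpha, 10.8% in somatolactotropes beta, 13.4% in corticotropes, 7.71% in melanotropes, 14.6% in *isl1*+ cells and 16% in *her6*+ cells. The pairs past 1.5-fold were *chga* in thyrotropes and *vgf* in corticotropes and somatotropes alpha, which were lower in *gnrh3*-/-, and *scg2b* in melanotropes, *vgf* in thyrotropes and *scg3* in *her6*+ cells, which were higher. The median log2 ratio of all genes lay between −0.17 in lactotropes and 0.07 in LH gonadotropes. Scaling by the TMM method moved it by over 0.1 in several types, to 0.09 in lactotropes and 0.10 in thyrotropes, so each ratio is also placed among all genes of its type.

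**Figure D4:**
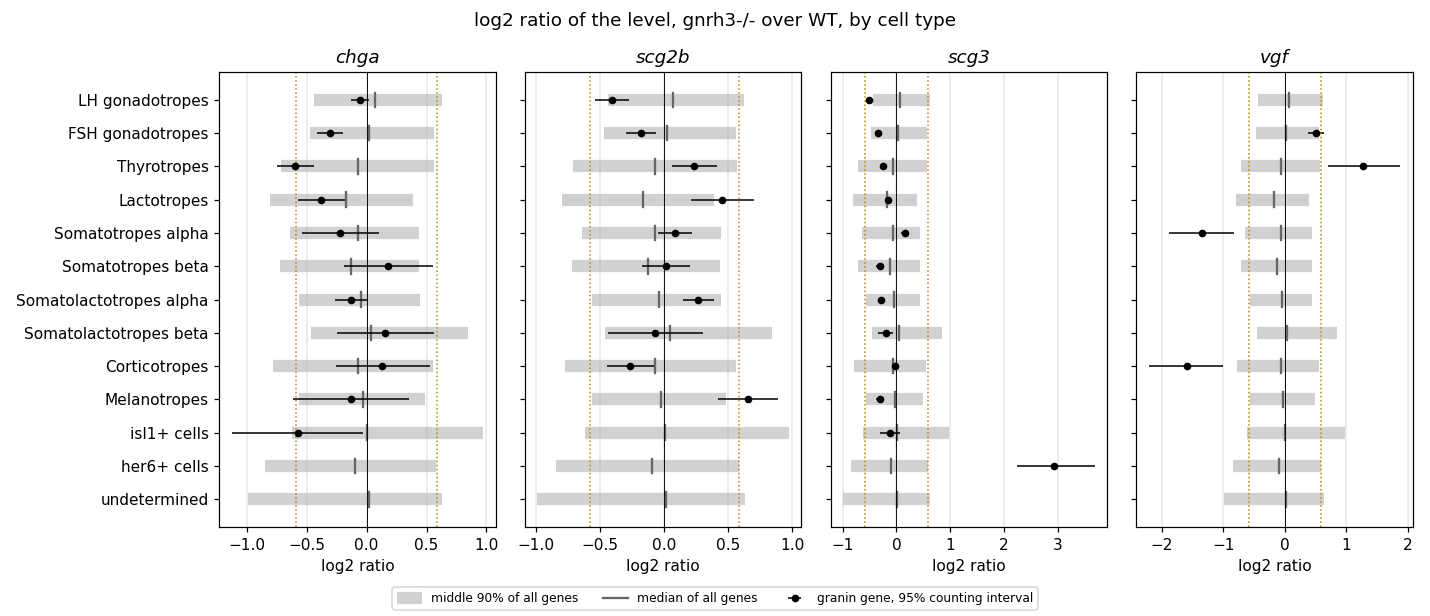
log2 ratio of the level in *gnrh3*-/- over WT (x axes) of *chga*, *scg2b*, *scg3* and *vgf* in 13 cell types (y axis), where enough UMIs were counted. Black points have exact 95% counting intervals, grey bands hold the middle 90% of all genes of a type, grey ticks their median, and dotted lines mark 1.5-fold. *vgf* lies at 1.27 in thyrotropes and at −1.59 in corticotropes, on opposite sides of the band.

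The gonadotropes, the cells that make LH and FSH, had no granin gene past 1.5-fold. In LH gonadotropes *scg3* was lower in *gnrh3*-/-, with a log2 ratio of −0.51 (−0.52 to −0.49), or 1.42-fold, which was at percentile 3.63 of the 5131 genes compared. The alternatives gave −0.67 to −0.44, and the −0.67, in cells with 5000 to 15000 UMIs, lay past 1.5-fold. In cells of 5000 to 10000 UMIs the *scg3* level was 112 in *gnrh3*-/- and 149 in WT, from 338 and only 21 cells. In cells of 10000 to 20000 UMIs it was 86.8 and 149, from 173 and 129 cells. Mixed cells stayed in these ranges, and their part in the difference there was not tested. In *gnrh3*-/- 29 LH gonadotropes were mixed, with an *scg3* level of 61.5 against 104 in the others, and in WT 2 were mixed. With mixed cells left out at all depths, the *scg3* log2 ratio was −0.46. *scg2b* was also lower, with a log2 ratio of −0.41 (−0.55 to −0.28) at percentile 5.67, and −0.30 in cells with 5000 to 15000 UMIs. Its level was 1.65 (1.49 to 1.81) in *gnrh3*-/- and 2.06 (1.44 to 2.87) in WT cells of 5000 to 10000 UMIs. In cells of 10000 to 20000 UMIs it was 1.93 (1.75 to 2.12) and 2.18 (1.97 to 2.40), and the intervals overlapped in both ranges. The *chga* ratio was −0.06 (−0.13 to 0.02), at percentile 31.6. The granin genes of the LH type therefore did not share 1 ratio, and *chga* stood nearest to the middle of all genes.

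In FSH gonadotropes *scg3* had a log2 ratio of −0.34 (−0.35 to −0.32) and *chga* one of −0.30 (−0.41 to −0.19), at percentiles 10.3 and 12.6. In cells with 5000 to 15000 UMIs *scg3* had −0.33, but *chga* only −0.10. *scg2b* had −0.18 (−0.30 to −0.07), and 0.50 in cells with 5000 to 15000 UMIs. *vgf* went the other way, with a log2 ratio of 0.51 (0.38 to 0.64) at percentile 93.8. The alternatives gave 0.50 to 0.79, and some of these lay past 1.5-fold. In cells of 5000 to 10000 UMIs the *vgf* level was 2.85 (2.66 to 3.06) in *gnrh3*-/- and 1.04 (0.723 to 1.46) in WT, and in cells of 10000 to 20000 UMIs 2.57 (2.40 to 2.74) and 1.92 (1.71 to 2.15). The share of FSH gonadotropes with a *vgf* UMI was 64.4% and 64.1% as counted, although *gnrh3*-/- cells were shallower, with medians of 8509.5 and 14919 UMIs.

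Thyrotropes showed the granin genes on both sides. *chga* had 643 UMIs in *gnrh3*-/- and 758 in WT, with levels of 4.09 (3.78 to 4.42) and 6.17 (5.74 to 6.63), a log2 ratio of −0.595 (−0.75 to −0.44) at percentile 8.08. It stood just past 1.5-fold and lay within it under 6 of 8 alternatives, with −0.42 under TMM scaling and −0.50 with mixed cells left out. In cells of at least 2000 UMIs it was −0.62, and in cells with 5000 to 15000 UMIs −0.71. At 2000 to 5000 UMIs the *chga* level was 4.43 (4.01 to 4.88) in *gnrh3*-/- and 6.34 (5.47 to 7.30) in WT. At 5000 to 10000 UMIs it was 4.36 (3.68 to 5.12) and 6.40 (5.83 to 7.01). *vgf* had 105 UMIs in *gnrh3*-/- and 34 in WT, with a log2 ratio of 1.27 (0.70 to 1.87) at percentile 99.3 and 0.96 to 1.64 under the alternatives. These UMIs came from 54 of 410 *gnrh3*-/- and 17 of 205 WT thyrotropes. The *vgf*-bearing thyrotropes had the hormone of the type, with *tshba* levels of 2500.2 in *gnrh3*-/- and 2482 in WT, and *fshb* was at 2.45 and 0.0698 in them. In *gnrh3*-/- they also had a *prl* level of 100.4, against 8.69 in the thyrotropes without a *vgf* UMI. The *vgf* ratio was 0.96 without mixed cells, those with over 5% of their UMIs in another type's hormone gene. FSH gonadotropes themselves had *fshb* at 207 in *gnrh3*-/- and 244 in WT per 10000 UMIs, under that 5%. Thyrotropes mixed with FSH gonadotropes would thus hardly be marked by *fshb*, and the part of mixed cells was not tested further. *scg2b* had 0.23 (0.06 to 0.41) and *scg3* −0.25 (−0.29 to −0.21).

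In corticotropes *vgf* was the gene that differed, with 34 UMIs in *gnrh3*-/- and 84 in WT. Its log2 ratio was −1.59 (−2.21 to −1.0) at percentile 0.502, and −1.62 to −1.36 under the alternatives. It was found in 23 of 274 *gnrh3*-/- and 36 of 186 WT corticotropes, and 1 cell held 22.6% of the WT UMIs. In cells of 5000 to 10000 UMIs the level was 0.485 (0.296 to 0.750) in *gnrh3*-/- and 0.932 (0.739 to 1.16) in WT, with intervals that just overlapped. In cells of 2000 to 5000 UMIs 9 UMIs were counted in *gnrh3*-/- and 0 in WT. The shares after thinning, 2.33% (0.858 to 4.99) and 7.65% (4.25 to 12.5), also had overlapping intervals. The other granin genes of corticotropes had log2 ratios of 0.13 (*chga*), −0.27 (*scg2b*) and −0.02 (*scg3*), the last of which was 0.13 in cells with 5000 to 15000 UMIs.

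Somatotropes alpha also had less *vgf* in *gnrh3*-/-, with 53 UMIs against 80 in WT and a log2 ratio of −1.35 (−1.88 to −0.83) at percentile 0.136. These UMIs moved with depth, since in cells of 10000 to 20000 UMIs the level was 0.0594 (0.0392 to 0.0865) in *gnrh3*-/- and 0.0507 (0.0232 to 0.0963) in WT. In cells of 20000 to 50000 UMIs it was 0.115 (0.0753 to 0.169) and 0.210 (0.163 to 0.265). In cells of 5000 to 10000 UMIs 0 UMIs were counted in 245 *gnrh3*-/- cells and 2 in 21 WT cells. The intervals of both libraries overlapped in each of these depth ranges, and the shares after thinning, 1.26% and 1.55%, had overlapping intervals too. *chga*, *scg2b* and *scg3* had log2 ratios of −0.22, 0.08 and 0.15, which turned to 0.34, −0.14 and −0.26 in cells with 5000 to 15000 UMIs. The *vgf* ratio in those cells, −1.47, rests on 9 and 3 UMIs.

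In melanotropes *scg2b* had 372 UMIs in *gnrh3*-/- and 255 in WT, with a log2 ratio of 0.65 (0.42 to 0.89) at percentile 97.5. The alternatives gave 0.64 to 0.74, all past 1.5-fold. It was found in 54.1% (45.3 to 62.7) of *gnrh3*-/- and 40.5% (29.9 to 51.8) of WT melanotropes after thinning, shares with overlapping intervals. In cells of 5000 to 10000 UMIs the level was 5.76 (4.96 to 6.64) in *gnrh3*-/- and 3.59 (3.01 to 4.24) in WT. Over all melanotropes *scg3* had a log2 ratio of −0.31 (−0.39 to −0.24) and *chga* −0.13 (−0.62 to 0.36). In corticotropes, which transcribe *pomca* too, the *scg2b* ratio was below 0, at −0.27 (−0.45 to −0.08). The difference between these ratios was not tested.

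Lactotropes, the type with the highest *scg3* level, had a *scg3* log2 ratio of −0.16 (−0.18 to −0.13), which lay at percentile 51.6 and thus at the middle of all genes of the type, and it was 0.10 under TMM scaling. *scg2b* in lactotropes had 0.45 (0.21 to 0.70) at percentile 96.6, and past 1.5-fold (0.71) under TMM scaling. *chga* had −0.38 (−0.57 to −0.18) at percentile 26.0. In cells with 5000 to 15000 UMIs the ratios of *scg3*, *scg2b* and *chga* were −0.54, 0.70 and −0.72, of which those of *scg2b* and *chga* lay past 1.5-fold. In somatolactotropes alpha *chga* had −0.13, *scg2b* 0.26 and *scg3* −0.29, and in somatolactotropes beta, with only 27 WT cells, 0.15, −0.08 and −0.20. Somatolactotropes alpha of 2000 to 5000 UMIs were 389 *gnrh3*-/- and 149 WT cells. Their *scg3* level was 106.1 (104.2 to 108.0) in *gnrh3*-/- and 160.4 (157.2 to 163.7) in WT, a wider gap than the 107 and 131 of all cells of the type. Their *chga* level was 7.88 (7.37 to 8.41) and 9.35 (8.58 to 10.2), while *scg2b* was higher in *gnrh3*-/-, at 11.1 and 8.55. In cells with 5000 to 15000 UMIs *chga* had a log2 ratio of −1.14 in somatolactotropes alpha, from 13 *gnrh3*-/- and 67 WT cells. In somatolactotropes beta of that depth, from 75 *gnrh3*-/- and 13 WT cells, *chga* turned to −0.21, *scg2b* had −0.54 and *scg3* −1.01. In somatotropes beta the ratios of *chga*, *scg2b* and *scg3* were 0.18, 0.01 and −0.31, and that of *chga* was 0.67 in cells with 5000 to 15000 UMIs. These ratios moved with depth. At 2000 to 5000 UMIs *chga* had levels of 0.629 in *gnrh3*-/- and 1.32 in WT, *scg2b* 2.15 and 3.63, and *scg3* 14.4 and 45.1. At 5000 to 10000 UMIs they were 0.561 and 0.446, 2.07 and 2.01, and 7.63 and 10.3. At 10000 to 20000 UMIs they were 0.603 and 0.392, 2.30 and 1.91, and 6.69 and 5.98. In *isl1*+ cells, from 39 *gnrh3*-/- and 19 WT cells, *chga* had −0.57 (−1.12 to −0.03) and *scg3* −0.12 (−0.31 to 0.06). With 5000 to 15000 UMIs, in 6 and 15 cells, they were −0.71 and 0.42.

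Across types, *scg3* had a log2 ratio below 0 in 10 of 12 types and below the median of all genes in 8 of 12. *chga* was below 0 in 8 of 11 and *scg2b* in 4 of 10, and below the median of all genes also in 8 and 4. Under TMM scaling the *scg3* ratio of lactotropes and corticotropes turned above 0, at 0.10 each. The types share their library in each genotype, so these counts are not independent.

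The largest ratio, that of *scg3* in *her6*+ cells, rested on few cells. There were 217 *scg3* UMIs in *gnrh3*-/- and 19 in WT, with levels of 6.48 (5.65 to 7.40) and 0.856 (0.515 to 1.34) and a log2 ratio of 2.92 (2.24 to 3.68). In *gnrh3*-/- 4 of 64 *her6*+ cells held over 5% of their UMIs in a hormone gene, against 0 of 37 in WT, and a single cell held 36.9% of the *scg3* UMIs. The 6 *gnrh3*-/- *her6*+ cells with the highest *scg3* level had a *gh1* level of 2362 and a *prl* level of 528, against 327 and 2.80 in the other cells. With mixed cells left out, the *gnrh3*-/- level was 1.92 (1.46 to 2.49) and the log2 ratio 1.17. In cells with 5000 to 15000 UMIs it was 0.89, from 18 and 17 cells. The undetermined type had 143 *scg3* UMIs in *gnrh3*-/- and 2 in WT, and 1 cell held 67.8% of the *gnrh3*-/- UMIs.

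The other genes of the granule were taken as 11 genes that make, process or hold granule cargo: the granin *chgb*, the granin-like chaperone *scg5*, the convertases *pcsk1* and *pcsk2*, the convertase inhibitor *pcsk1nl*, the trimming enzyme *cpe*, the amidating enzyme *pam*, and the membrane proteins *ptprna*, *ptprnb*, *ptprn2* and *cyb561*. Of 143 pairs of gene and type 68 had enough UMIs. Of these, 12 were lower and 2 higher past 1.5-fold in *gnrh3*-/-, or 20.6% in all, and 45 of 68 had a ratio below 0. The median log2 ratio of all genes was itself below 0 in many types, down to −0.17 in lactotropes. It was above 0 in others, up to 0.07 in LH gonadotropes. The count of 45, of which *scg5* gave 11, is therefore not read as a shift of these genes. *scg5* made up 8 of the 12 lower ones. Without it, 6 of 57 pairs (10.5%) lay past 1.5-fold, close to the 9.94% of all genes.

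**Figure D5:**
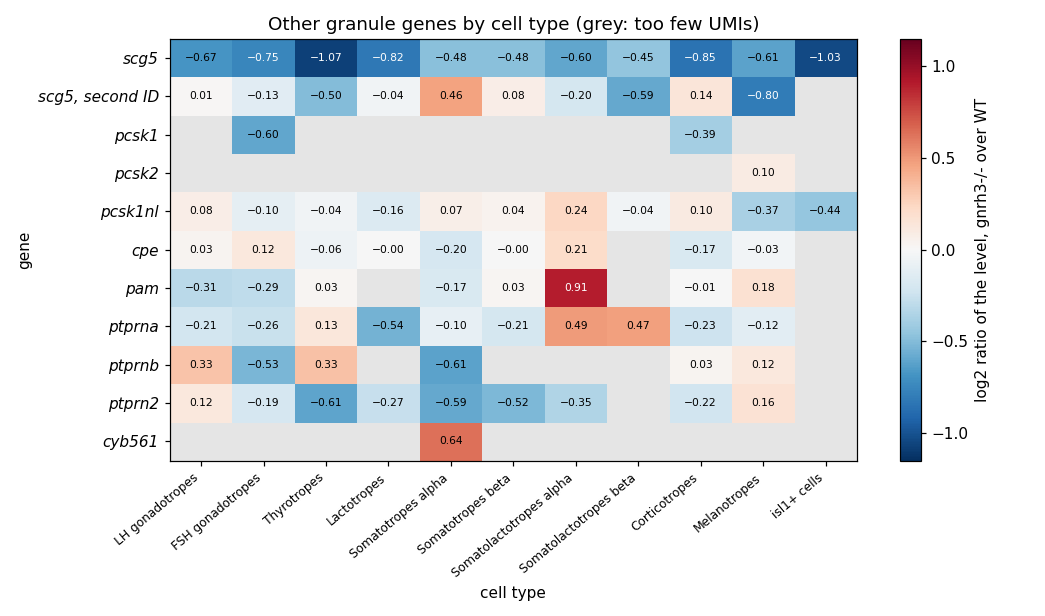
log2 ratio of the level in *gnrh3*-/- over WT (colour, blue lower and red higher in *gnrh3*-/-) of 10 other granule genes and the second *scg5* ID (rows) in 11 cell types (columns), with grey where too few UMIs were counted. The row of *scg5* is below 0 in 11 of 11 types, between −1.07 and −0.45.

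*scg5* (ENSDARG00000032126) codes for 7B2, the chaperone of the convertase Pcsk2, and had a ratio below 0 in 11 of 11 types, in 11 also under 7 of 8 alternatives and in 10 in cells with 5000 to 15000 UMIs. The level was 7.23 in *gnrh3*-/- and 15.2 in WT thyrotropes, a log2 ratio of −1.07 (−1.18 to −0.97) at percentile 1.20. In corticotropes it was 9.28 and 16.7 (−0.85), in lactotropes 3.51 and 6.20 (−0.82), in FSH gonadotropes 1.50 and 2.51 (−0.75), in LH gonadotropes 4.67 and 7.46 (−0.67), and in melanotropes 16.7 and 25.6 (−0.61). Somatolactotropes alpha, with the highest level of the types when hormone genes are in the total, had 19.4 and 29.5 (−0.60), and *isl1*+ cells 5.64 and 11.6 (−1.03). Hormone genes held 40.0% and 40.6% of the UMIs of melanotropes, against 3.94% and 3.99% in somatolactotropes alpha. Without hormone genes in the total, melanotropes would thus stand above somatolactotropes alpha for *scg5* in both libraries. The ratio lay past 1.5-fold in 8 of 11 types, in 5 under TMM scaling, and in 7 to 9 under the other alternatives. A second gene ID with the symbol *scg5* (ENSDARG00000077045) had log2 ratios of −0.80 to 0.46 in 10 types, of which 6 were below 0. Since reads of near-identical copies can be split between such IDs, both were also added up. Whether these IDs are such copies was not tested. The sum had log2 ratios below 0 in the 11 types, among them −0.94 in thyrotropes and −0.30 in somatotropes alpha. In LH gonadotropes (−0.52) and somatolactotropes alpha (−0.50) the sum lay within 1.5-fold, where the first ID alone lay past it.

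In none of the 11 types where it could be read did *pcsk1nl*, which codes for the convertase inhibitor proSAAS, lie past 1.5-fold, and its log2 ratios were −0.44 to 0.24. It was highest in LH gonadotropes, with 34.0 in *gnrh3*-/- and 32.2 in WT. *pcsk2* was read in melanotropes alone, at 3.56 and 3.34 and a log2 ratio of 0.10 (−0.17 to 0.36), so the Pcsk2 transcript had a ratio near 0 where that of its chaperone was −0.61. *pam* was highest in FSH gonadotropes at 4.20 and 5.14 (−0.29), and lay past 1.5-fold in somatolactotropes alpha, with 100 and 41 UMIs and a log2 ratio of 0.91 (0.37 to 1.47), but −0.01 in cells with 5000 to 15000 UMIs. *cyb561* had 0.64 in somatotropes alpha, and 0.38 in cells with 5000 to 15000 UMIs. Lower past 1.5-fold besides *scg5* were *pcsk1* in FSH gonadotropes (−0.60), *ptprn2* in thyrotropes (−0.61) and somatotropes alpha (−0.59), and *ptprnb* in somatotropes alpha (−0.61). Of these, *pcsk1* in FSH gonadotropes turned to 0.39 and *ptprn2* in somatotropes alpha to 0.24 in cells with 5000 to 15000 UMIs, and by the mean of single-cell levels they had −0.39 and −0.08. *chgb* had 7 UMIs in *gnrh3*-/- and 4 in WT cells, too few to read.

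The distribution of the granin genes over types was also compared with that of other genes, by Pearson's r of log2(level + 0.1) over the 26 points of 13 types in both libraries, among 6049 genes with at least 500 UMIs. The points share their libraries, so r is a description. *chga* and *scg3* had r = 0.89 with each other, *scg2b* and *scg3* 0.80, and *chga* and *scg2b* 0.79, while *vgf* had 0.22 to 0.29 with the others. The genes most like *chga* were *tpd52l1* (0.92), *tmem178b* (0.89) and *pcsk1nl* (0.89). Those most like *scg2b* were *rtn1a* (0.96), a reticulon of the endoplasmic reticulum, *olfm2a* (0.92) and *syngr2b* (0.92), a synaptogyrin of vesicle membranes. Those most like *scg3* were *zgc:193711* (0.90), *zgc:65894* (0.90) and *eya1* (0.89), and those most like *vgf* were *anxa11a* (0.76), *rrad* (0.75) and *sh3bgrl2* (0.75). By Spearman's rho the first of these was the same for *scg3* only.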

How the data were processed

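The authors counted reads with Cell Ranger 6.0.2 on GRCz11 with the protein-coding genes of Ensembl 106, and deposited tables of UMI counts, not normalized, for every barcode. They deposited the counts of the cells they kept separately, with the genotype and cell type that they assigned with Seurat 4 after integrating both libraries. In these cells, 0 entries differed between the tables, and 1 barcode occurs in both libraries. The values of 1 of the 14 types are not reported here. The cell types were taken as deposited. Doublets were kept, and cells with over 5% of their UMIs from another type's hormone gene (mixed cells) were left out as an alternative.

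UMIs were summed per gene, type and library with Python 3.11.15, numpy 2.4.6, scipy 1.17.1 and pandas 2.3.3. Levels have exact Poisson intervals, shares of cells exact Clopper-Pearson intervals, and ratios intervals derived from Clopper-Pearson limits on the *gnrh3*-/- share of both sums. Libraries held 38809315 (*gnrh3*-/-) and 25405369 (WT) UMIs, of which 85.6% and 86.5% were in cells. The study's test across cells treats cells as replicates and was not used. Alternatives were a total without hormone genes, TMM scaling (edgeR 4.0.16), the mean of single-cell levels, subtraction of free RNA, mixed cells left out, cells of at least 2000 UMIs, leaving out the cell with most UMIs of a gene, and thinning to 1000 UMIs. Cells with 5000 to 15000 UMIs and the second *scg5* ID were chosen after seeing the data. Counts were simulated with Poisson error only, with 200 genes changed by a log2 of 1 or 2 in either direction. The sign was recovered for 100% of the changed genes that were compared in LH gonadotropes (5131 genes) and FSH gonadotropes (5502 genes). No spread between fish, libraries or cells and no change of 1.5-fold was simulated, so this checks the calculation only.

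Named were the granin genes, the 11 other granule genes, hormone genes set beside them and the 3 genes with the most similar pattern to each. The members and lists were chosen with earlier results of these data known. Gene symbols come from the deposited gene list, and no genome coordinates were used.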

Additional observations from a re-analysis of the deposited data

Results flagged for a closer look

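*vgf* differed between the genotypes in opposite directions in different types. Its log2 ratio of *gnrh3*-/- over WT was 1.27 in thyrotropes, but −1.59 in corticotropes and −1.35 in somatotropes alpha. With 1 library per genotype the difference between the types was not tested. These ratios rest on 105 and 34 UMIs in thyrotropes, 34 and 84 in corticotropes and 53 and 80 in somatotropes alpha of *gnrh3*-/- and WT. In somatotropes alpha with 10000 to 20000 UMIs the *vgf* level was 0.0594 in *gnrh3*-/- and 0.0507 in WT, with overlapping intervals. In corticotropes with 2000 to 5000 UMIs 9 *vgf* UMIs were counted in *gnrh3*-/- and 0 in WT. Of the *vgf* UMIs of *gnrh3*-/- thyrotropes, 31 lay in 14 mixed cells, and WT thyrotropes had 0 mixed cells. With mixed cells left out, the log2 ratio in thyrotropes was 0.96.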

How the results depend on the processing

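Of the 6 pairs of granin gene and type past 1.5-fold, 5 or 6 stayed past it under each of 8 alternatives, and *chga* in thyrotropes was the pair lost, under 6 of them. In cells with 5000 to 15000 UMIs, a window chosen after seeing the data, 8 pairs were lower and 6 higher past 1.5-fold, against 3 and 3 in all cells, and 30 of 37 ratios kept their sign. Under the other alternatives 33 to 37 of 37 ratios kept their sign. With hormone genes left out of the total, 1 in place of 2 of the other granule genes was higher past 1.5-fold. At 2-fold in place of 1.5-fold, 2 pairs of granin gene and type were lower and 2 higher. The counts in cells with 5000 to 15000 UMIs and at 2-fold had no share of all genes beside them. They are not read as results about the granin genes. No granin ratio that lay past 1.5-fold turned its direction, but of the other granule genes *pam* in somatolactotropes alpha (−0.01), *pcsk1* in FSH gonadotropes (0.39) and *ptprn2* in somatotropes alpha (0.24) did in cells with 5000 to 15000 UMIs. At that depth somatolactotropes alpha had 13 *gnrh3*-/- cells and somatolactotropes beta 13 WT cells. Genes with few UMIs limit what can be read, since 15 pairs of granin gene and type had too few. No paired analysis was possible because there is 1 library per genotype, and for the same reason no replicate could be left out.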
